A study of Mus musculus with 14 samples.

Results

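The mitochondrial carrier family (solute carrier family 25, with the uncoupling proteins Ucp1, Ucp2 and Ucp3) was followed in mouse liver exposed to interleukin 13. Members were taken by symbol: every gene named Slc25a and a number, plus the 3 uncoupling proteins. A RefSeq gene table held 50 such protein-coding genes, of which 41 had a probe on the array, among 16593 genes with a probe. Of the 41, 31 passed a detection filter (a probe detected on at least 3 arrays at a detection p under 0.05), among 9711 genes that passed. Whole liver RNA had been hybridised to Illumina BeadChips, 1 array per sample, 14 in all. The mice carried an expression plasmid for IL-13 or, as the control, for EGFP, brought into the liver by a hydrodynamic injection 1 week before they were killed. Each genotype, wild type and Alb-Cre, had 4 arrays with EGFP and 3 with IL-13. The title of the series places Alb-Cre on a floxed Il4ra background. The labels call the other mice WT and do not say whether they carried the floxed allele, and they give no age. The albumin promoter drives Cre in hepatocytes, so other liver cells would keep the receptor chain, and Il4ra itself is not analysed here. Both plasmids reach mainly hepatocytes, and the injection was common to all groups.

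Carriers of this family are small proteins of the inner mitochondrial membrane, built from repeats of a common fold, that exchange metabolites between cytosol and matrix. In hepatocytes they feed the pathways split across that membrane: fatty acid oxidation needs acylcarnitines carried in, fatty acid synthesis needs citrate carried out, and the urea cycle needs ornithine and aspartate exchanged. IL-13 is a type 2 cytokine whose receptors contain the IL-4 receptor alpha chain and signal through STAT6. The comparisons therefore address how these carriers differed with IL-13, and whether that response differed in mice with Alb-Cre.

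Each array detected 11554 to 13261 of 25697 probes, and within-group correlations ran from 0.98 to 0.993. The number of arrays limits the precision of every value. Whether every sample was a separate mouse is not stated, so p-values measure the spread between samples only. The tissue label held: the 8 hepatocyte markers averaged 10.99 to 12.09 on the log2 scale over all arrays. In wild type 5 of these 8 fell with IL-13 (array means 11.88 to 12.09 with EGFP and 10.99 to 11.59 with IL-13). In Alb-Cre 0 of 8 passed by limma (1 at an unadjusted p under 0.05), and the array means were 11.80 to 11.98 and 11.65 to 11.88. Neutrophil markers (4 of 4 measured) and stellate cell markers (4 of 6) rose in both genotypes. The neutrophil marker Mpo was detected on no EGFP array, so it was measured only through the groups in which it was high. Erythroid markers (3 of 4) and cycling cell markers (2 of 2) rose in Alb-Cre, against 1 of 4 and 0 of 2 in wild type by limma (0 of the 2 also unadjusted). None of 4 skeletal muscle markers and 1 of 4 adipocyte markers passed the filter. X-linked Xist was detected on all 8 EGFP arrays and on replicates 1 and 2 of wild type with IL-13. Y-linked Eif2s3y was detected, and Xist was not, on replicate 3 of wild type with IL-13 and on all 3 arrays of Alb-Cre with IL-13. In Alb-Cre, plasmid and sex-linked pattern cannot be told apart, and values with that pattern as a covariate are given where they change the call of a carrier. Within a group the pattern varied only in wild type with IL-13, so replicate 3 against replicates 1 and 2 sets the covariate. For the wild-type response it amounts to leaving out replicate 3 and is no separate check. Other covariate values carry a shift read from that 1 array, and they do not separate plasmid from sex in Alb-Cre.

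With IL-13 in wild type, 7 of the 31 measured carriers rose and 11 fell (58.1%, against 40.7% of all genes tested; 21.5% rose and 19.2% fell). The rises included the pyrimidine nucleotide carrier Slc25a33 and the uncoupling-protein relative Slc25a30, and the falls included the branched-chain amino acid carrier Slc25a44 and the citrate carrier Slc25a1. The groups did not overlap for 15 members, against 43.5% of all genes. In Alb-Cre none rose and 7 fell (22.6%, against 18.9% of all genes, of which 11.1% rose and 7.83% fell). By unadjusted p under 0.05 the Alb-Cre comparison held 11 carriers, 1 of them, Slc25a17, higher. The groups did not overlap there for 7 members, against 28.9% of all genes. The median log2 change over the 31 was -0.16 in both genotypes, against 0.00 over all genes in wild type and -0.02 in Alb-Cre. The median size of the change was 0.45 in wild type, against 0.27 over all genes, and 0.28 in Alb-Cre, against 0.18. The responses of the genotypes differed for 6 carriers (19.4%, against 13.2% of all genes). Tests were limma's, two-sided, with Benjamini-Hochberg adjustment over all 9711 genes and a threshold of 0.05. In whole liver RNA, fewer cells of a type and less RNA per cell cannot be told apart.

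**Figure D1:**
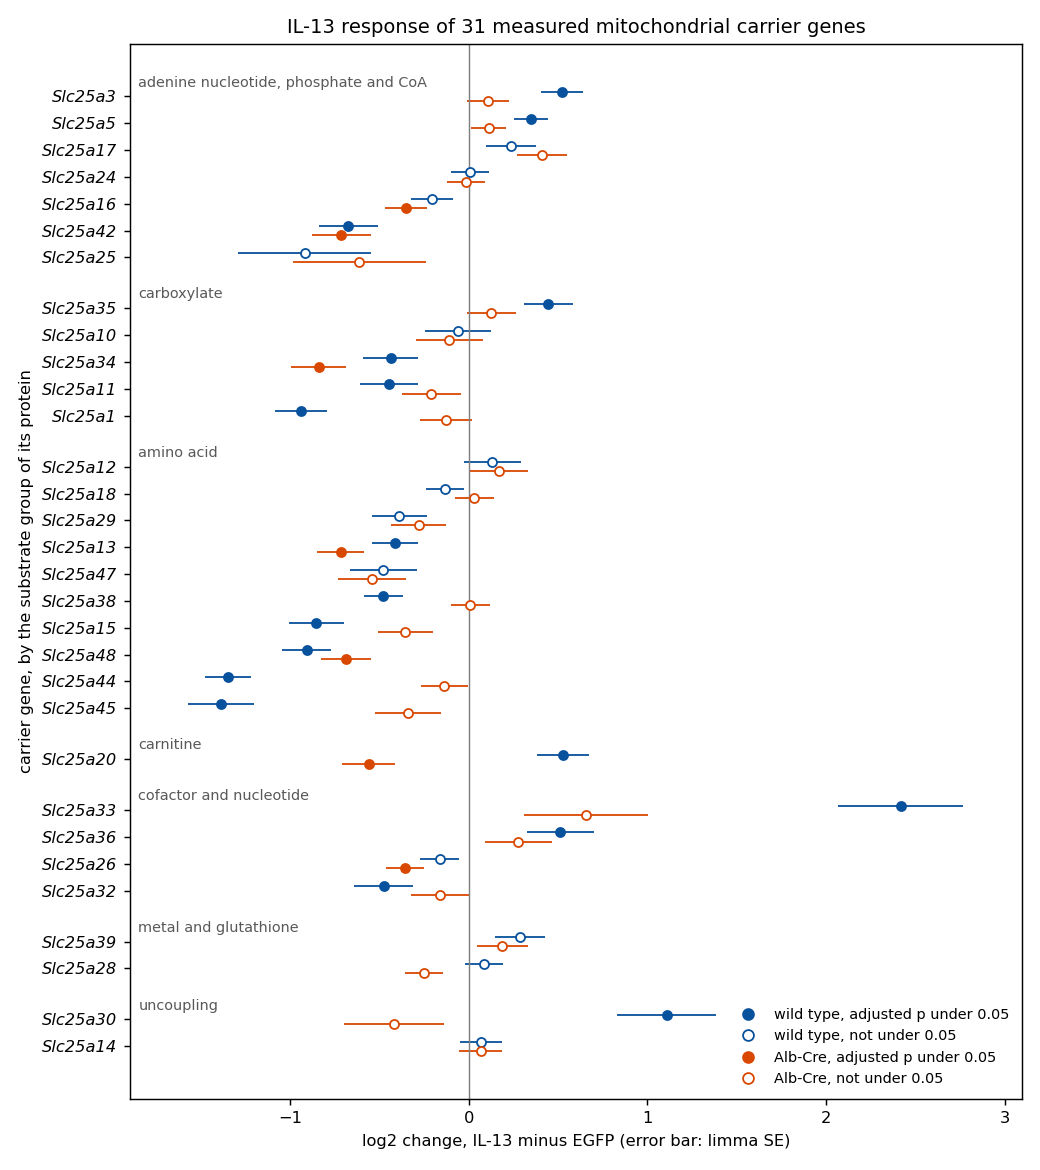
Log2 change with IL-13 against EGFP (horizontal axis) of the 31 measured carriers, grouped by the substrate of the protein, in wild type (blue) and Alb-Cre (orange). Bars are limma standard errors and filled points have an adjusted p under 0.05. Slc25a33 lies farthest right in wild type at 2.42, Slc25a45 and Slc25a44 lie farthest left at -1.39 and -1.35, and the filled orange points all lie left of 0.

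The 6 carriers whose IL-13 response differed between the genotypes fell into 2 sets of 3. Slc25a33, Slc25a30 and the carnitine carrier Slc25a20 had a lower response in Alb-Cre than in wild type, and Slc25a44, Slc25a45 and Slc25a1 had a higher one. The sets were formed by the sign of the difference, so a shared sign within a set is no observation. In Alb-Cre itself Slc25a33, Slc25a30 and Slc25a20 changed by 0.66, -0.42 and -0.56, and only Slc25a20 passed. Responses are compared with their sign, so the higher response of the other set was a smaller fall. Slc25a44, Slc25a45 and Slc25a1 changed by -1.35, -1.39 and -0.94 in wild type. Their changes in Alb-Cre were -0.14, -0.34 and -0.13, and none passed. For 5 of the 6 carriers RefSeq (GRCm38.p6) gave a promoter window of 250 bases before to 50 after the gene's start, and these are shown as sequence only. Capitals mark the GC box GGGCGG, the E-box CACGTG and the CCAAT box CCAAT on either strand.
Slc25a33: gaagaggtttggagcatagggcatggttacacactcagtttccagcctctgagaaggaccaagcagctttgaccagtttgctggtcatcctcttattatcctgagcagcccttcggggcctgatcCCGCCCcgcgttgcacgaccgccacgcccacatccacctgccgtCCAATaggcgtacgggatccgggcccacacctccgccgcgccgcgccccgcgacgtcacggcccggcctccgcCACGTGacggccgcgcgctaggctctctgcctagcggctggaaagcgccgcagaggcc
Slc25a30: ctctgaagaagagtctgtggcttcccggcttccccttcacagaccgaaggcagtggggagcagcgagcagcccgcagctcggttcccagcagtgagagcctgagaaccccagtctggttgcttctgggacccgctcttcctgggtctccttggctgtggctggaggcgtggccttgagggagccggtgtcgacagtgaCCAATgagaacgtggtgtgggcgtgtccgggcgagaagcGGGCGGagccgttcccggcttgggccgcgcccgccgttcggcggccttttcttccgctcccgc
Slc25a20: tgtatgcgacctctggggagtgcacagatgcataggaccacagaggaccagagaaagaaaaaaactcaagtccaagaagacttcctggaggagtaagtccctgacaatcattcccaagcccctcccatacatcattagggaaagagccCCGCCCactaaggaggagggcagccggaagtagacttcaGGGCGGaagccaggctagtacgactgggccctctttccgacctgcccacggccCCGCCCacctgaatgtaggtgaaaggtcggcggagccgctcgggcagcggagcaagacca
Slc25a1: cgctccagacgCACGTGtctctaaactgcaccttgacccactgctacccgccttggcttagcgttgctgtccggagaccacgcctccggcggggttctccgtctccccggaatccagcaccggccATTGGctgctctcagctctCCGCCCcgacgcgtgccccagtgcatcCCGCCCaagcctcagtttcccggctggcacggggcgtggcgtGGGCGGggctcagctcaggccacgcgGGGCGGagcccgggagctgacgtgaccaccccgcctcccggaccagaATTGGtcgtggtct
Slc25a45: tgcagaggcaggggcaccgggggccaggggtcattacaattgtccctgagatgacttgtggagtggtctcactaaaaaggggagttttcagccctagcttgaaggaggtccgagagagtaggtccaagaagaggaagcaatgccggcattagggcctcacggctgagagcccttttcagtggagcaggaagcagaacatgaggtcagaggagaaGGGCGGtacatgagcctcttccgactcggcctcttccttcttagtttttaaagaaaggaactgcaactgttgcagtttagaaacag

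The windows lie at chr4:149774218-149774517 (minus strand), chr14:75786988-75787287 (minus), chr9:108661886-108662185 (plus), chr16:17928170-17928469 (minus) and chr19:5877572-5877871 (plus). All 5 held at least 1 GC box, from 1 in Slc25a45 at -36 to -31 to 4 in Slc25a1 between -106 and -6. The E-box stood at -239 to -234 in Slc25a1 and at -8 to -3 in Slc25a33, just before the start. A CCAAT box was found in Slc25a33, Slc25a30 and Slc25a1, and in neither Slc25a20 nor Slc25a45. Windows were matched for 27 of the 31 measured carriers (32 windows). Of these 32 windows, 27 held a GC box, 16 a CCAAT box and 7 an E-box. Of all 32851 windows, 35.7% held a GC box, 37.4% a CCAAT box and 7.15% an E-box. The sterol response element TCACNCCAC was found in 1 carrier, Slc25a18 (1.24% of all windows). Both strands were searched, the motifs listed do not contain each other, and a match describes letters and not binding.

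Slc25a20 is the carnitine-acylcarnitine carrier, through which long-chain fatty acids enter the matrix as acylcarnitines. In wild type it measured 11.56, 11.31, 11.15 and 11.30 on the log2 scale with EGFP, and 11.97, 12 and 11.60 with IL-13. In Alb-Cre it measured 11.57, 11.23, 11.47 and 11.30 with EGFP, and 10.50, 11 and 10.99 with IL-13. All IL-13 arrays lay above all EGFP arrays in wild type, and all lay below them in Alb-Cre. It rose by 0.53 ± 0.15 (SE, 1.44-fold, adjusted p = 0.00908) in wild type. In Alb-Cre it fell by 0.56 ± 0.15 (1.48-fold, adjusted p = 0.0138), and the responses differed by -1.09 ± 0.21 (adjusted p = 0.0029). With IL-13, Alb-Cre lay 1.03 ± 0.16 below wild type (adjusted p = 2.62e-04), without overlap. A second probe gave 0.62, -0.40 and -1.02 for these changes, of which the fall in Alb-Cre did not pass (adjusted p = 0.0824 over probes), and a dimmer probe gave 0.26, 0.09 and -0.18 with none past the threshold.

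Those calls for Slc25a20 rested on the scaling and on single arrays to different degrees. Without the quantile step, with each array's median set equal, the rise in wild type was 0.20 (adjusted p = 0.424), and in the authors' deposited log2 table it was 0.23 (adjusted p = 0.34). The fall in Alb-Cre was -0.40 (adjusted p = 0.0884) without Alb-Cre IL-13 replicate 1 and -0.18 (adjusted p = 0.753) with the sex-linked pattern as a covariate. The difference of responses was -0.83 (adjusted p = 0.0455) with that covariate and -0.79 (adjusted p = 0.0572) in the deposited table.

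Genes of the same pathway gave similar directions. Of 9 measured genes of the carnitine shuttle and of long-chain and medium-chain oxidation, 6 rose and 0 fell with IL-13 in wild type (median 0.50, against 0.00 over all genes, of which 21.5% rose). In Alb-Cre 0 rose and 5 fell (median -0.54, against -0.02 over all genes, of which 7.83% fell). A lower response than in wild type was called for 7 of 9, against 6.5% of all genes. Crat, the carnitine acetyltransferase, rose by 1.14 in wild type and fell by 0.58 in Alb-Cre. Hadhb, a subunit of the trifunctional protein of beta-oxidation, rose by 0.72 and fell by 0.54. Acadl, the long-chain acyl-CoA dehydrogenase, rose by 0.50 and fell by 0.81. Cpt1a, the liver form of the outer-membrane palmitoyltransferase, did not pass in either genotype (0.00 and -0.34). Without the quantile step, or in the deposited table, 3 of 9 rose in wild type and 3 fell in Alb-Cre. With the sex-linked covariate 0 fell in Alb-Cre.

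**Figure D2:**
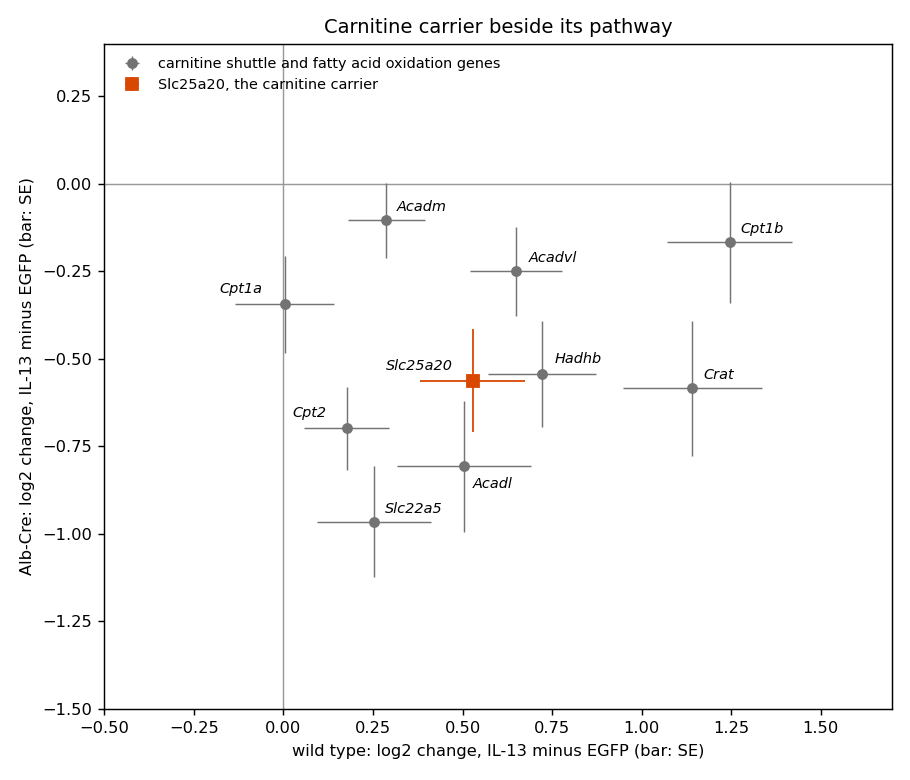
Log2 change with IL-13 against EGFP in wild type (horizontal axis) and in Alb-Cre (vertical axis) for Slc25a20 (square) and 9 genes of the carnitine shuttle and of fatty acid oxidation (circles), with limma standard errors as bars. All points lie below 0 on the vertical axis and at or right of 0 on the horizontal one, with Slc25a20 at 0.53 and -0.56.

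Among the carboxylate carriers, Slc25a1 exports citrate, the source of cytosolic acetyl-CoA for lipid synthesis. It measured 10.58, 10.39, 10.34 and 10.34 with EGFP and 9.42, 9.89 and 9.11 with IL-13 in wild type. The Alb-Cre arrays gave 10.58, 10.37, 10.65 and 10.41 with EGFP and 10.43, 10.28 and 10.42 with IL-13. The wild-type IL-13 arrays stood apart below all others, while the Alb-Cre groups overlapped. The fall in wild type was 0.94 ± 0.15 (1.92-fold, adjusted p = 9.78e-05), while Alb-Cre gave -0.13 ± 0.15 (adjusted p = 0.613). The responses differed by 0.81 ± 0.21 (adjusted p = 0.0178), and both probes of the gene passed in the wild-type and difference comparisons. With the sex-linked covariate the difference was 1.17 (adjusted p = 0.00339). Of 9 measured enzymes of citrate use and of the malate-aspartate shuttle, 4 fell in wild type (19.2% of all genes fell), and in Alb-Cre 0 passed by limma (1 at an unadjusted p under 0.05). Acly, which splits the exported citrate, fell by 1.58 in wild type against a change of 0.40 in Alb-Cre. Acaca, the first committed enzyme of fatty acid synthesis, fell by 1.59 against a change of 0.13. Both had different responses (adjusted p = 5.56e-05 and 5.52e-04), and the shuttle enzymes Got2, Mdh1 and Mdh2 changed by -0.02, -0.18 and 0.26 in wild type without passing.

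Slc25a34, a carrier whose substrate is less settled, fell in both genotypes. It measured 6.63, 7.10, 6.29 and 6.58 with EGFP and 6.20, 6.39 and 6.05 with IL-13 in wild type, where 1 EGFP array lay within the IL-13 range. Alb-Cre livers measured 6.29, 6.51, 6.50 and 6.68, then 5.70, 5.64 and 5.62, with no overlap. The changes were -0.44 ± 0.16 (adjusted p = 0.0336) and -0.84 ± 0.16 (adjusted p = 0.0011). The responses did not pass as different (-0.40 ± 0.22, adjusted p = 0.261), although under IL-13 Alb-Cre lay lower by 0.56 ± 0.17 (adjusted p = 0.0239). That last call was lost without wild type IL-13 replicate 1 or 2 or Alb-Cre IL-13 replicate 2 or 3 (-0.47 to -0.56, adjusted p 0.0502 to 0.0994). A second probe gave -0.10 in each genotype and passed in neither. That probe lay near the detection limit, detected on 3 of 14 arrays and on no IL-13 array, so it says little about a fall. The wild-type call was lost without any of 4 arrays (-0.29 to -0.44, adjusted p 0.0561 to 0.126), namely replicates 1 and 2 of wild type EGFP and replicates 1 and 3 of wild type IL-13. With the sex-linked covariate the values were -0.35 in wild type, -0.59 in Alb-Cre and -0.39 between genotypes under IL-13 (adjusted p = 0.126, 0.248 and 0.304). Without the quantile step the wild-type value was -0.37 (adjusted p = 0.0946) and that between genotypes -0.52 (adjusted p = 0.0554), and in the deposited table they were -0.18 and -0.23 (adjusted p = 0.123 and 0.107).

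Slc25a35, a close relative of Slc25a34, was near the detection limit. It measured 4.57, 4.37, 4.32 and 4.59 with EGFP and 4.79, 4.89 and 5.04 with IL-13 in wild type, against 4.36, 4.42, 4.45 and 4.82, then 4.89, 4.60 and 4.42, in Alb-Cre. It was detected on all 3 wild-type IL-13 arrays, where its mean was highest, and on 5 of the other 11. Those 5 were enough for the filter, but the undetected arrays leave the size of its rise uncertain. The rise was 0.45 ± 0.14 in wild type (adjusted p = 0.0153), and 0.38 (adjusted p = 0.0653) without wild type IL-13 replicate 3. The sex-linked covariate, which amounts to that omission in wild type, gave 0.38 (adjusted p = 0.065). Alb-Cre gave 0.13 ± 0.14 (adjusted p = 0.586).

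Slc25a10, the dicarboxylate carrier, which exchanges malate and succinate for phosphate, overlapped between the groups in every comparison. It measured 9.79, 9.78, 9.58 and 9.51 with EGFP and 9.87, 9.53 and 9.41 with IL-13 in wild type. The Alb-Cre values were 9.36, 9.74, 10.02 and 9.68, then 9.10, 9.79 and 9.88. The changes were -0.06 ± 0.19 and -0.11 ± 0.19 and neither passed (adjusted p = 0.756 in Alb-Cre). Slc25a11, the oxoglutarate carrier of the malate-aspartate shuttle, fell by 0.45 ± 0.16 in wild type (adjusted p = 0.0395) by 1 of its 3 probes, and the other two gave -0.22 and -0.21 without passing. That call was lost when any of 5 wild-type arrays was left out (-0.34 to -0.47, adjusted p 0.0559 to 0.177): EGFP replicates 1, 3 and 4 and IL-13 replicates 2 and 3. It was also lost with the mean of its probes (-0.29, adjusted p = 0.101) and no filter on dim probes (adjusted p = 0.0717). The sex-linked covariate, which amounts to omitting wild type IL-13 replicate 3, gave -0.47 (adjusted p = 0.065). In Alb-Cre it changed by -0.21 ± 0.16 (adjusted p = 0.427).

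The amino acid carriers were the largest group and held the most falls: of 10 measured, 0 rose and 6 fell in wild type (median -0.48, against 0.00 over all genes). In Alb-Cre 0 rose and 2 fell (median -0.31). Of all genes, 19.2% fell in wild type and 7.83% in Alb-Cre. Of the 5 measured carboxylate carriers, 1 rose and 3 fell in wild type. Slc25a44 carries branched-chain amino acids into mitochondria, a role shown in mouse brown fat. It measured 9.50, 9.46, 9.64 and 9.56 with EGFP and 7.92, 8.26 and 8.39 with IL-13 in wild type. The Alb-Cre values were 9.50, 9.61, 9.32 and 9.52 with EGFP and 9.32, 9.13 and 9.60 with IL-13. The 3 wild-type IL-13 arrays lay below every other array, and the Alb-Cre groups overlapped. It fell by 1.35 ± 0.13 (2.55-fold, adjusted p = 7.61e-07) in wild type and changed by -0.14 ± 0.13 (adjusted p = 0.528) in Alb-Cre. The responses differed by 1.21 ± 0.19 (adjusted p = 5.26e-04), and by 1.01 (adjusted p = 0.0104) with the sex-linked covariate.

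Slc25a45, whose protein has been linked to the uptake of methylated amino acids used in carnitine synthesis, followed the same order of groups. It measured 9.32, 9.29, 9.48 and 9.47 with EGFP and 7.81, 7.99 and 8.2 with IL-13 in wild type. Its Alb-Cre values were 9.18, 9.27, 9.38 and 9.30 with EGFP and 9.45, 8.37 and 9.02 with IL-13. The wild-type groups stood far apart, whereas the Alb-Cre IL-13 arrays were spread both above and below their controls. The fall in wild type was 1.39 ± 0.18 (2.62-fold, adjusted p = 1.8e-05). Alb-Cre gave -0.34 ± 0.18 (adjusted p = 0.224), and -0.59 (adjusted p = 0.0205) without Alb-Cre IL-13 replicate 1. The responses differed by 1.05 ± 0.26 (adjusted p = 0.0145), and by 0.85 (adjusted p = 0.119) with the sex-linked covariate.

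**Figure D3:**
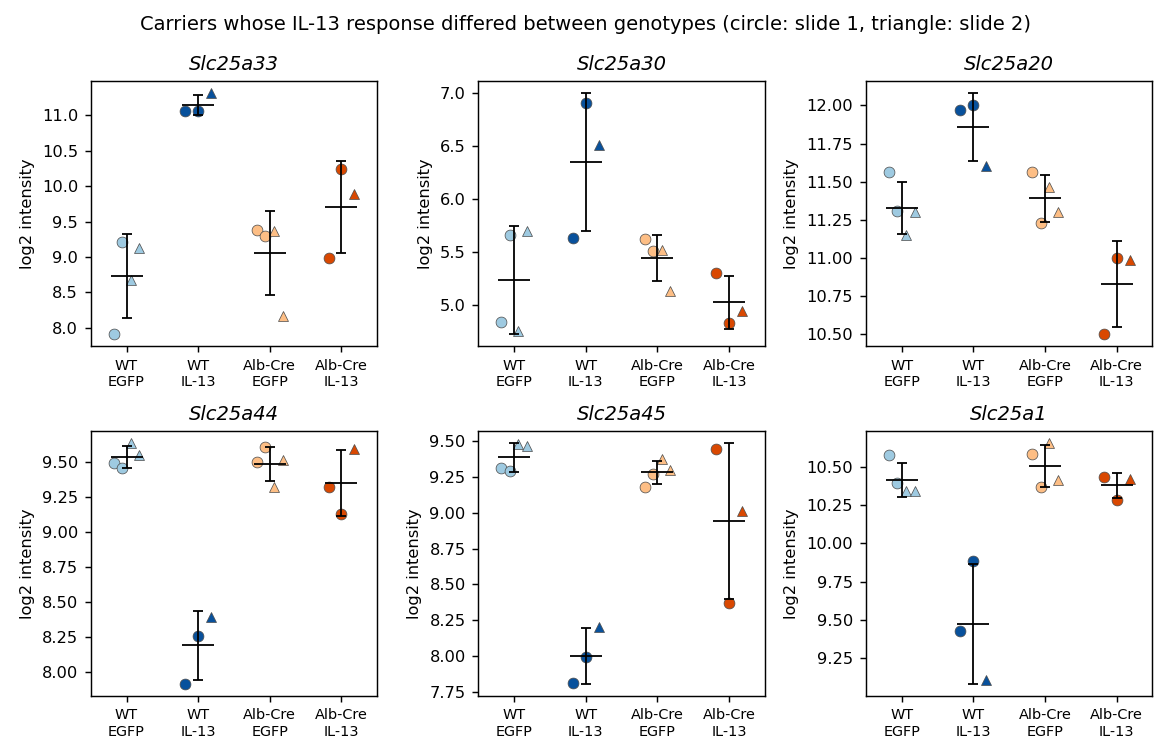
Log2 intensity (vertical axis) on each array of the 6 carriers whose IL-13 response differed between genotypes, by group (WT is wild type). Circles are arrays of slide 1, triangles of slide 2, and bars give the group mean and SD. The wild-type IL-13 arrays lie above the other groups for Slc25a33, from 11.06 to 11.31, and below them for Slc25a44, Slc25a45 and Slc25a1, while in Slc25a20 the IL-13 groups lie on opposite sides of the EGFP groups.

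Slc25a15 exchanges ornithine for citrulline and so joins the matrix and cytosolic steps of the urea cycle. It measured 11.10, 11.46, 11.13 and 11.42 with EGFP and 10.32, 10.36 and 10.58 with IL-13 in wild type. In Alb-Cre it measured 11.08, 11.45, 11.20 and 11.20, then 11.16, 10.49 and 10.98. The groups were separate in wild type and overlapped in Alb-Cre. The fall was 0.85 ± 0.15 (1.81-fold, adjusted p = 3.32e-04) in wild type, on both probes, while Alb-Cre gave -0.36 ± 0.15 (adjusted p = 0.123), or -0.50 (adjusted p = 0.0497) without Alb-Cre IL-13 replicate 1. The difference of 0.50 ± 0.22 did not pass (adjusted p = 0.151). It was 0.69 (adjusted p = 0.0288) without Alb-Cre IL-13 replicate 2, but 0.34 (adjusted p = 0.492) with the sex-linked covariate. Of 8 measured urea cycle and linked genes, 1 rose and 4 fell in wild type (median -0.67), and in Alb-Cre 0 passed by limma (2 at an unadjusted p under 0.05, median -0.36). Of all genes, 21.5% rose and 19.2% fell in wild type, and 18.9% passed in Alb-Cre. The cytosolic enzymes Asl and Ass1 fell by 1.61 and 1.19 in wild type and the matrix enzyme Otc by 1.22, while the cytosolic arginase Arg1 rose by 0.45. Cps1, the entry enzyme of the cycle and also 1 of the 8 hepatocyte markers, fell by 0.87. The response differed between genotypes for 0 of the 8 by limma (5 at an unadjusted p under 0.05). The fall of 5 of 8 hepatocyte markers in wild type stood beside these falls, and its part in them was not tested.

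Slc25a13 encodes citrin, the liver's aspartate-glutamate carrier, which supplies aspartate to the urea cycle and runs the malate-aspartate shuttle. It measured 5.99, 5.89, 5.68 and 6.0 with EGFP and 5.24, 5.55 and 5.64 with IL-13 in wild type. Its Alb-Cre values were 5.85, 6.0, 5.72 and 5.77, then 4.92, 5.09 and 5.35. The IL-13 arrays lay below the EGFP arrays in both genotypes. The falls were 0.41 ± 0.13 (adjusted p = 0.0186) and 0.72 ± 0.13 (1.64-fold, adjusted p = 9.92e-04), and they did not differ past the threshold (-0.30 ± 0.18, adjusted p = 0.324). A second probe gave -0.14 and -0.23 and passed in neither. It lay near the detection limit, detected on 6 of 14 arrays, so it says little about a fall. By the brighter probe, the wild-type fall was -0.30 (adjusted p = 0.104) without wild type IL-13 replicate 1 and -0.37 (adjusted p = 0.0508) without wild type EGFP replicate 4. It was -0.34 (adjusted p = 0.0847) without the quantile step and -0.13 (adjusted p = 0.0949) in the deposited table. With the sex-linked covariate the Alb-Cre change was -0.96 (adjusted p = 0.0226). Slc25a12, the paralogue used mainly outside the liver, changed by 0.13 and 0.17 and passed in neither genotype.

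Slc25a48, counted here among the amino acid carriers and linked in mouse and human studies to choline uptake by mitochondria, measured 5.0, 5.44, 5.23 and 5.55 with EGFP and 4.39, 4.41 and 4.40 with IL-13 in wild type. Alb-Cre arrays read 5.11, 5.48, 5.43 and 5.60, then 4.64, 4.64 and 4.87. It was not detected on any wild-type IL-13 array and was detected on all 11 others, and neither pair of groups overlapped. The wild-type fall was therefore at least 1.79-fold (fitted log2 change -0.91 ± 0.14, adjusted p = 7.39e-05). For this bound an undetected array counted at its lowest detected signal, or at the probe's value where that was higher. In Alb-Cre it fell by 0.69 ± 0.14 (1.61-fold, adjusted p = 0.0022), or -0.69 (adjusted p = 0.136) with the sex-linked covariate.

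Slc25a38, the glycine carrier that starts heme synthesis, measured 9.98, 9.78, 9.95 and 9.79 with EGFP and 9.42, 9.21 and 9.55 with IL-13 in wild type. For Alb-Cre the values were 9.93, 9.63, 9.74 and 9.90, then 9.74, 9.90 and 9.78. The wild-type groups did not overlap and the Alb-Cre groups did. It fell by 0.48 ± 0.11 (1.39-fold, adjusted p = 0.0025) in wild type on all 3 probes and changed by 0.01 ± 0.11 in Alb-Cre. The difference of 0.49 ± 0.16 lay just outside the threshold (adjusted p = 0.052), and its other probes gave 0.53 and 0.76, both inside it. It was 0.53 (adjusted p = 0.0494) without Alb-Cre EGFP replicate 1 and 0.57 (adjusted p = 0.0288) without wild type IL-13 replicate 3, but 0.33 (adjusted p = 0.313) with the sex-linked covariate. Under IL-13, Alb-Cre lay 0.41 ± 0.12 above wild type (adjusted p = 0.0208), a call lost without Alb-Cre IL-13 replicate 2 or 3 (0.37 and 0.42, adjusted p = 0.0706 and 0.0512) or wild type IL-13 replicate 2 (0.32, adjusted p = 0.0988). The sex-linked covariate brought it to 0.25 (adjusted p = 0.342).

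Of 9 measured genes of mitochondrial iron and heme handling, 3 rose and 1 fell in wild type and 2 rose in Alb-Cre. Of all genes 40.7% passed in wild type and 18.9% in Alb-Cre, so these counts lie near those shares. Ppox, a late enzyme of heme synthesis, fell by 0.57 in wild type and changed by 0.14 in Alb-Cre, and the responses differed (0.72, adjusted p = 0.00711). Hmox1, which breaks heme down, rose by 1.37 in wild type and changed by -0.05 in Alb-Cre. Alas2, the erythroid form of the first heme enzyme and also an erythroid marker, rose by 1.25 in Alb-Cre. The erythroid markers averaged 7.85 to 7.91 per array with EGFP and 9.01 to 9.75 with IL-13 in Alb-Cre, and 7.57 to 7.89 and 7.05 to 9.2 in wild type. Their part in the carrier values was not tested.

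Slc25a47, a liver-enriched carrier, lay just outside the threshold in both genotypes. It measured 12.47, 12.50, 12.29 and 12.54 with EGFP and 12, 11.55 and 12.37 with IL-13 in wild type. In Alb-Cre it measured 12.32, 12.69, 12.63 and 12.16, then 12.19, 11.56 and 11.98. In each genotype 1 IL-13 array lay within the EGFP range. The changes were -0.48 ± 0.19 (adjusted p = 0.0548) and -0.54 ± 0.19 (adjusted p = 0.0574). Without wild type IL-13 replicate 3, the array on which Xist was not detected, the wild-type change was -0.67 (adjusted p = 0.0105). It also passed there without Alb-Cre IL-13 replicate 1 or 2 or Alb-Cre EGFP replicate 4 (-0.48 each, adjusted p 0.0388 to 0.0497). The Alb-Cre change passed without Alb-Cre IL-13 replicate 1, Alb-Cre EGFP replicate 4 or wild type IL-13 replicate 2 or 3 (-0.54 to -0.69, adjusted p 0.0317 to 0.041). With the sex-linked covariate both passed, at -0.68 in wild type (adjusted p = 0.0101) and -1.14 in Alb-Cre (adjusted p = 0.0374). In wild type that covariate amounts to leaving out wild type IL-13 replicate 3. Without the quantile step both passed too (-0.77 and -0.65, adjusted p = 0.00779 and 0.0437). Slc25a29, a carrier of basic amino acids, stood next to it at the threshold in wild type (-0.39 ± 0.15, adjusted p = 0.0546) and was detected on 9 of 14 arrays. Slc25a29 passed without wild type EGFP replicate 3, wild type IL-13 replicate 3 or Alb-Cre EGFP replicate 1 or 4 (-0.39 to -0.51, adjusted p 0.0123 to 0.0473). The sex-linked covariate, which amounts to omitting wild type IL-13 replicate 3, gave -0.48 (adjusted p = 0.0403).

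Slc25a33 carries pyrimidine nucleotides into mitochondria and gave the largest change among the 31 measured carriers. It measured 7.91, 9.21, 8.67 and 9.13 with EGFP and 11.07, 11.06 and 11.31 with IL-13 in wild type. Its Alb-Cre values were 9.38, 9.30, 9.37 and 8.16 with EGFP and 8.98, 10.25 and 9.89 with IL-13. The wild-type IL-13 arrays lay above every other array, and the Alb-Cre groups overlapped. It rose by 2.42 ± 0.35 (5.34-fold, adjusted p = 4.34e-05) in wild type and changed by 0.66 ± 0.35 (adjusted p = 0.219) in Alb-Cre. The responses differed by -1.76 ± 0.49 (adjusted p = 0.0272), and Alb-Cre lay 1.44 ± 0.37 below wild type under IL-13 (adjusted p = 0.0112). The call of a difference was lost when any of 5 arrays was left out (-1.40 to -1.68, adjusted p 0.0509 to 0.0677): Alb-Cre EGFP replicates 1, 2 and 3, Alb-Cre IL-13 replicate 1 and wild type IL-13 replicate 3. It was also lost with the sex-linked covariate (-1.93, adjusted p = 0.0698), without the quantile step (-1.51, adjusted p = 0.059), in the deposited table (-1.41, adjusted p = 0.083) and with no filter on dim probes (adjusted p = 0.0719). The genotype difference under IL-13 was -1.08 (adjusted p = 0.0558) without Alb-Cre IL-13 replicate 1 and -1.61 (adjusted p = 0.063) with the sex-linked covariate.

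Slc25a36, its paralogue with the same class of substrates, measured 4.30, 4.88, 4.71 and 4.90 with EGFP and 4.83, 5.23 and 5.57 with IL-13 in wild type. Levels in Alb-Cre were 4.86, 4.45, 4.90 and 4.83, then 5.03, 4.79 and 5.29. The groups overlapped in both genotypes. It rose by 0.51 ± 0.19 in wild type (adjusted p = 0.0391), a call lost without wild type EGFP replicate 1 or 3 (0.38 and 0.52, adjusted p = 0.122 and 0.0652) or wild type IL-13 replicate 2 or 3 (0.50 and 0.33, adjusted p = 0.0937 and 0.2). It was also lost with no filter on dim probes (adjusted p = 0.0787). The sex-linked covariate, which amounts to omitting wild type IL-13 replicate 3, gave 0.33 (adjusted p = 0.2). In Alb-Cre it changed by 0.28 ± 0.19 (adjusted p = 0.348).

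Slc25a26 brings S-adenosylmethionine, the methyl donor, into mitochondria. It measured 6.68, 6.86, 6.46 and 6.64 with EGFP and 6.52, 6.57 and 6.4 with IL-13 in wild type, and 6.60, 6.72, 6.72 and 6.65, then 6.16, 6.41 and 6.37, in Alb-Cre. Only the Alb-Cre groups were separate. It fell there by 0.36 ± 0.11 (adjusted p = 0.0276) and changed by -0.16 ± 0.11 in wild type (adjusted p = 0.246), and the difference of -0.19 ± 0.15 did not pass (adjusted p = 0.46). The Alb-Cre call was lost without Alb-Cre IL-13 replicate 1 (-0.28, adjusted p = 0.133) or Alb-Cre EGFP replicate 2 or 3 (-0.34 each, adjusted p = 0.0616 and 0.0638). It was -0.21 (adjusted p = 0.594) with the sex-linked covariate, -0.18 (adjusted p = 0.449) without the quantile step and -0.09 (adjusted p = 0.441) in the deposited table. Slc25a32, a carrier linked to folate and FAD, fell by 0.48 ± 0.16 in wild type (adjusted p = 0.0292). That call of Slc25a32 was lost without wild type EGFP replicate 2 or 4 or wild type IL-13 replicate 2 or 3 (-0.40 to -0.47, adjusted p 0.0561 to 0.106). It was -0.40 (adjusted p = 0.106) with the sex-linked covariate, -0.37 (adjusted p = 0.135) without the quantile step, -0.12 (adjusted p = 0.196) in the deposited table and -0.48 (adjusted p = 0.0544) with no filter on dim probes. Of 5 measured one-carbon genes, 2 rose and 2 fell in wild type (40.7% of all genes passed there), and 2 rose in Alb-Cre (18.9% of all genes passed). The rises were those of Mthfd2 and Aldh1l2, both matrix folate enzymes, in either genotype. Each was detected on all IL-13 arrays and on 1 EGFP array, so no size is given. Both passed the filter only through the groups in which they were high, so these rises are not read against the shares of all genes. Shmt2, the matrix serine hydroxymethyltransferase, fell by 0.86 in wild type against a change of 0.01 in Alb-Cre.

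Slc25a30, a relative of the uncoupling proteins first described in kidney, measured 4.84, 5.66, 4.76 and 5.70 with EGFP and 5.63, 6.90 and 6.50 with IL-13 in wild type. In Alb-Cre it measured 5.62, 5.51, 5.52 and 5.13 with EGFP and 5.31, 4.83 and 4.95 with IL-13. IL-13 replicate 1 of wild type lay within the EGFP range, and the Alb-Cre groups overlapped. It rose by 1.11 ± 0.28 (2.15-fold, adjusted p = 0.00449) in wild type and changed by -0.42 ± 0.28 (adjusted p = 0.338) in Alb-Cre. The responses differed by -1.53 ± 0.39 (adjusted p = 0.0182), and under IL-13 all Alb-Cre arrays lay below all wild-type arrays, by 1.32 ± 0.30 on average (adjusted p = 0.00478). The difference was -1.25 (adjusted p = 0.0509) without wild type IL-13 replicate 2. In the authors' deposited log2 table, which keeps the background, the difference was -0.55 (adjusted p = 0.0626) and the wild-type rise 0.47 (adjusted p = 0.00806). Slc25a14, another relative, changed by 0.07 in each genotype and passed in neither. Ucp1, the uncoupling protein of brown fat, was detected on 0 of 14 arrays, and Ucp3, that of muscle, by 1 probe on 1 array. Ucp2 is not analysed here.

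Slc25a3 and Slc25a5 supply the ATP synthase with phosphate and exchange ADP for ATP. Slc25a3 measured 9.88, 9.89, 10.22 and 10.07 with EGFP and 10.66, 10.46 and 10.49 with IL-13 in wild type, against 10.09, 9.99, 9.86 and 9.98, then 10.06, 10.30 and 9.90, in Alb-Cre. The wild-type groups were separate, with a rise of 0.52 ± 0.12 (1.44-fold, adjusted p = 0.00214). Its 2 probes disagreed, since the other fell by 0.36 in wild type (adjusted p = 0.0106 over probes). Under IL-13, Alb-Cre lay 0.45 ± 0.13 below wild type by the brighter probe (adjusted p = 0.018) and 0.26 above it by the other (adjusted p = 0.112 over probes). That call by the brighter probe was lost without wild type IL-13 replicate 1 (-0.39, adjusted p = 0.0631) or Alb-Cre IL-13 replicate 3 (-0.36, adjusted p = 0.0963), with the sex-linked covariate (-0.40, adjusted p = 0.169) or without the quantile step (-0.32, adjusted p = 0.188).

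Slc25a5 measured 12.45, 12.29, 12.52 and 12.47 with EGFP and 12.78, 12.77 and 12.79 with IL-13 in wild type, against 12.47, 12.42, 12.22 and 12.44, then 12.40, 12.55 and 12.53, in Alb-Cre. The wild-type groups were separate, and those of Alb-Cre overlapped. The rise was 0.35 ± 0.10 (1.27-fold, adjusted p = 0.00804) in wild type, while Alb-Cre gave 0.11 ± 0.10 (adjusted p = 0.482). A probe for this gene can bind its near-identical paralogues and pseudogenes, so its value is uncertain. Without the quantile step the rises were 0.28 for Slc25a3 (adjusted p = 0.154) and 0.09 for Slc25a5 (adjusted p = 0.633). Of 11 ATP synthase subunits measured, 0 passed in any comparison by limma, and at an unadjusted p under 0.05 there was 1 in wild type and 0 in Alb-Cre. The lowest adjusted p in wild type was that of Atp5a1 (0.34, adjusted p = 0.0651).

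Slc25a42 carries coenzyme A and adenosine diphosphate, and it fell to a similar extent in both genotypes. It measured 9.63, 9.64, 9.02 and 9.32 with EGFP and 8.93, 8.58 and 8.68 with IL-13 in wild type. For Alb-Cre the values were 9.53, 9.26, 9.64 and 9.28, then 8.90, 8.41 and 8.83. No IL-13 array reached an EGFP array. The falls were 0.67 ± 0.17 (1.6-fold, adjusted p = 0.00395) and 0.71 ± 0.17 (1.64-fold, adjusted p = 0.00654), with a difference of -0.04 ± 0.24 (adjusted p = 0.945). With the sex-linked covariate the Alb-Cre change was -0.64 (adjusted p = 0.262), and in the deposited table -0.55 (adjusted p = 0.0574).

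Slc25a25, a calcium-regulated ATP-magnesium and phosphate carrier, varied widely within groups. It measured 9.84, 10.24, 9.79 and 10.29 with EGFP and 8.0, 9.13 and 10.23 with IL-13 in wild type. Alb-Cre livers measured 9.22, 10.05, 9.81 and 9.11, then 8.85, 8.69 and 9.26. Replicate 3 of wild type with IL-13 lay among the EGFP arrays and the other two far below them. The change was -0.92 ± 0.37 (adjusted p = 0.0607) in wild type. It passed without that replicate (-1.48, adjusted p = 0.00137), and the sex-linked covariate, which amounts to that omission in wild type, gave -1.47 (adjusted p = 0.00136). Without the quantile step it passed too (-1.07, adjusted p = 0.018), and on slide 2 alone it was 0.19. In Alb-Cre it was -0.61 ± 0.37 (adjusted p = 0.288), and -2.27 (adjusted p = 0.0121) with the sex-linked covariate, which also gave -1.30 (adjusted p = 0.0491) between genotypes under IL-13. Both covariate values carry the shift of wild type IL-13 replicate 3 from the other arrays of its group. Slc25a16, a carrier linked to coenzyme A, fell by 0.35 ± 0.12 in Alb-Cre (adjusted p = 0.0474), just inside the threshold, and changed by -0.21 in wild type. The call of Slc25a16 was lost under 7 of 14 omissions of an array (-0.29 to -0.41, adjusted p 0.0524 to 0.142), namely Alb-Cre EGFP replicates 1 and 2, each of the 3 Alb-Cre IL-13 replicates, and wild type EGFP replicates 1 and 3. It was also lost with the sex-linked covariate (-0.51, adjusted p = 0.188), without the quantile step (-0.26, adjusted p = 0.309), in the deposited table (-0.20, adjusted p = 0.338) and with the slide as a block (adjusted p = 0.0528). Slc25a17, a peroxisomal carrier of cofactors, lay just outside it in Alb-Cre (0.41 ± 0.14, adjusted p = 0.0534), and inside it without Alb-Cre IL-13 replicate 1 or replicate 2 of either EGFP group (0.41 to 0.55, adjusted p 0.0192 to 0.0455).

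**Figure D4:**
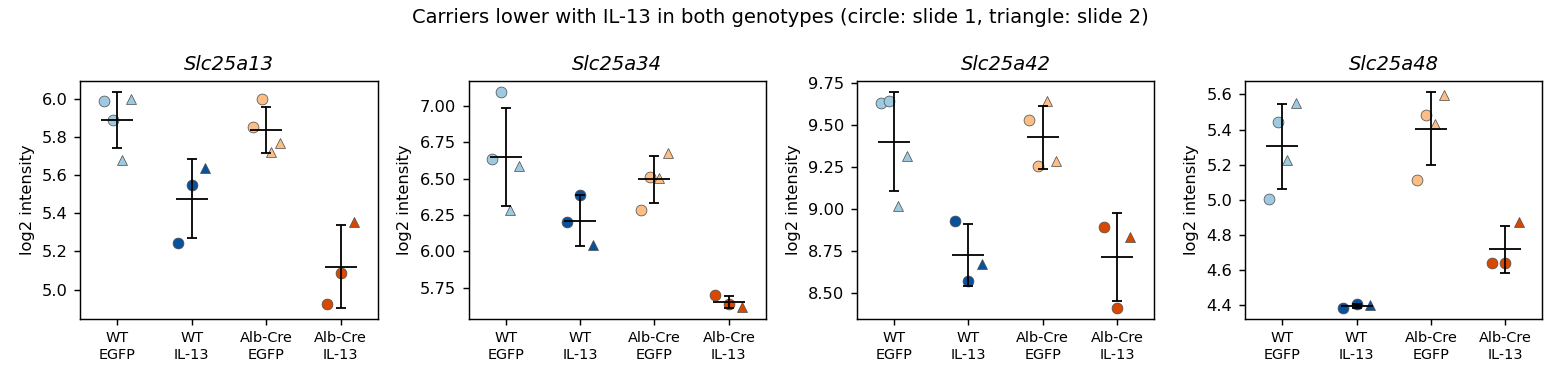
Log2 intensity (vertical axis) on each array of the 4 carriers that fell with IL-13 in both genotypes, by group (WT is wild type). Circles are arrays of slide 1, triangles of slide 2, and bars give the group mean and SD. The IL-13 arrays lie below the EGFP arrays of the same genotype in 7 of the 8 pairs, and Slc25a34 in wild type overlaps.

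Slc25a13, Slc25a34, Slc25a42 and Slc25a48 fell in both genotypes, and Slc25a20 passed in both with opposite signs. The differences of response for the 4 common falls ranged from -0.40 to 0.22, and none passed. Among regulators of mitochondrial number and fatty acid oxidation, Ppara, the fatty acid receptor of hepatocytes, fell by 1.41 in wild type and 0.97 in Alb-Cre, and Tfam, which maintains mitochondrial DNA, by 0.48 and 0.30. The other 5 measured regulators, Ppargc1a among them (0.29 and -0.52), did not pass in either genotype. Of 11 other measured transport genes of the mitochondrial membranes, 1 rose and 4 fell in wild type, and 1 fell in Alb-Cre. Of all genes 40.7% passed in wild type and 18.9% in Alb-Cre, so these counts lie near or below those shares. Sfxn5, a sideroflexin, fell by 1.37 and 0.71, and Vdac1, an outer-membrane channel, by 0.39 in wild type. Pdk4, the kinase that closes pyruvate dehydrogenase, rose by 3.07 in wild type and changed by -0.44 in Alb-Cre, the largest change among 7 measured genes of pyruvate use.

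Under IL-13, Alb-Cre lay above wild type for 4 carriers and below it for 6 (32.3%, against 21.9% of all genes, 10.7% higher and 11.2% lower). The arrays did not overlap for 12 of 31, against 33% of all genes. This comparison shares its arrays with the plasmid comparisons. Slc25a44 was higher by 1.16 ± 0.14, Slc25a45 by 0.94 ± 0.20 and Slc25a1 by 0.90 ± 0.16, and Slc25a38, Slc25a20, Slc25a30, Slc25a33, Slc25a34 and Slc25a3 were described above. The call of Slc25a45 was lost with the sex-linked covariate (0.74, adjusted p = 0.0905). Slc25a28, the iron carrier mitoferrin 2, was lower by 0.36 ± 0.11 (adjusted p = 0.0347), a call lost without Alb-Cre IL-13 replicate 1 or 3 or wild type IL-13 replicate 1 or 2 (-0.30 to -0.34, adjusted p 0.0955 to 0.114). It was -0.21 (adjusted p = 0.431) with the sex-linked covariate, -0.29 (adjusted p = 0.281) without the quantile step and -0.25 (adjusted p = 0.245) in the deposited table. Slc25a39, which carries glutathione, changed by -0.09 ± 0.15 (adjusted p = 0.74). With IL-13 in wild type it changed by 0.29 ± 0.14 (adjusted p = 0.124), and by 0.44 (adjusted p = 0.0219) without wild type IL-13 replicate 3. The sex-linked covariate, which amounts to that omission in wild type, gave 0.44 (adjusted p = 0.0215).

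Under EGFP, 0 of 31 carriers differed between Alb-Cre and wild type by limma, against 0% of all genes, and 0 had an unadjusted p under 0.05. The arrays did not overlap for 0 carriers, against 2.8% of all genes. The differences ran from -0.49 ± 0.34 for Slc25a25 to 0.32 ± 0.32 for Slc25a33. The median size was 0.05, against 0.08 over all genes.

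The arrays lay on 2 slides, each with all 4 groups, so the difference of responses could be read within each. For Slc25a33 it was -2.23 on slide 1 and -1.28 on slide 2, for Slc25a30 -1.52 and -1.66, and for Slc25a20 -1.20 and -0.77. Slc25a44 gave 1.06 and 1.38, Slc25a45 gave 1.08 and 0.95, and Slc25a1 gave 0.71 and 1.11. The 6 were taken from the test over both slides together, so a shared sign is no separate support. Past the threshold within a slide were Slc25a44 (adjusted p = 0.0161) and Slc25a1 (adjusted p = 0.0404), both on slide 2, where each IL-13 group holds 1 array that is taken to vary like the EGFP groups. The unmeasured or undetected members complete the account: Slc25a21, Slc25a22, Slc25a27, Slc25a31, Slc25a40, Slc25a41, Slc25a46, Slc25a53, Ucp1 and Ucp3 had probes that did not pass the filter. Slc25a2, Slc25a4, Slc25a23, Slc25a37, Slc25a43, Slc25a51, Slc25a54 and Ucp2, whose symbols no probe carried, are not analysed here. Slc25a18 (detected on 5 of 14 arrays) and Slc25a24 changed by -0.13 and 0.01 in wild type and passed in no comparison.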

How the data were processed

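Whole liver RNA of 14 samples was labelled with Cy3 and read on Illumina mouse BeadChips, per the labels. The authors deposited non-normalized probe intensities with a detection p-value for each probe and array; the submitters' processing notes name GenomeStudio 2011.1. The deposited log2 table is the log2 of those intensities after 1 factor per array that sets the median to 500, as found by setting it against the authors' intensity values. The intensities were background-corrected by normexp from the detection p-values, offset by 16, quantile-normalized and put on the log2 scale (neqc, limma 3.58.1 in R 4.3.3). Probes detected (p under 0.05) on at least 3 arrays were kept (14109 of 25697), and each gene was read by its brightest kept probe. Gene symbols came from the array's annotation: 23978 probes had 1 symbol, 0 had several and 1719 had none. Of the 31 carriers, 9 had more than 1 kept probe.

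Group means were fitted by limma over all 9711 genes and all 14 arrays, with moderated tests, two-sided, on 5 contrasts. P-values were adjusted by Benjamini-Hochberg over all genes, and 0.05 was the threshold. The difference of responses was Alb-Cre minus wild type. The fitting code was also tested, after the fit, on arrays simulated from the levels and spreads of these data, in which the changed genes were known. Named were the 6 largest rises and falls per plasmid contrast among those past the threshold, up to 6 differences of response and 4 genotype differences per direction, and a set of carriers of known liver roles. Members next to the threshold and up to 3 genes per pathway list were also named. Slc25a11, Slc25a12, Slc25a14, Slc25a16, Slc25a18, Slc25a24, Slc25a28, Slc25a32 and Slc25a39 were named after their values were seen, as were pathway genes beyond the 3 most changed. The carriers and all gene lists were chosen with earlier results of these data known. Alternatives were the deposited log2 table, median scaling, other filters on dim probes, the mean of a gene's probes, the slide as a block or alone, a replicate block, the sex-linked pattern as a covariate and leaving out each array. Same-numbered samples of different groups did not deviate together (3 of 19 pairs had r over 0.1, from -0.121 to 0.283), and the numbers were not taken to pair them. Replicate numbers are those of the sample titles; the descriptions number the wild-type IL-13 samples differently, which bears on this check, on the replicate block and on the replicate names used.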

Additional observations from a re-analysis of the deposited data

Results flagged for a closer look

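There were 6 members whose IL-13 response differed between the genotypes in the test of the difference itself. As Alb-Cre minus wild type on the log2 scale it was 0.81 for Slc25a1, -1.09 for Slc25a20, -1.53 for Slc25a30, -1.76 for Slc25a33, 1.21 for Slc25a44 and 1.05 for Slc25a45.

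In 5 of 62 EGFP groups of 4 arrays examined, 1 array stood apart from the other three by Dixon's test, which chance does in about 1 of 20 groups. Slc25a33 measured 8.16 on Alb-Cre EGFP replicate 4, against 9.30 to 9.38 on the others. Slc25a11 measured 9.65 on the same array, against 9.41 to 9.42, and Slc25a36 measured 4.45 on Alb-Cre EGFP replicate 2, against 4.83 to 4.90. In wild type with EGFP, Slc25a14 measured 5.01 on replicate 4, against 5.18 to 5.21, and Slc25a28 measured 8.83 on replicate 2, against 9.08 to 9.10.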

How the results depend on the processing

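No carrier change past the threshold turned its sign under an alternative, while some that had not passed did, such as Slc25a25 in wild type (0.19 on slide 2 alone). With IL-13 in wild type, 7 carriers rose in the reported fit, 4 in the deposited log2 table, 4 with median scaling, 2 on slide 1 alone and 3 on slide 2 alone, and 11 fell, or 5 on slide 2 alone. In Alb-Cre 0 rose, or 1 in the deposited table, with median scaling, with the mean of a gene's probes and with the replicate block, and 7 fell, or 4 in the deposited table, 3 with the sex-linked covariate (1 of them, Slc25a13, among the reported 7), 2 on slide 1 and 1 on slide 2. A higher response in Alb-Cre was called for 3, or 0 on slide 1, and a lower one for 3, or 0 in the deposited table, on slide 1 and on slide 2. Under IL-13, 4 were higher in Alb-Cre, or 2 with the sex-linked covariate and on slide 1. A further 6 were lower, or 3 in the deposited table, with median scaling and with the covariate, 1 on slide 1 and 0 on slide 2. A slide alone holds fewer arrays. The cause of the other shifts was not tested. With each array left out in turn, 6 to 7 rose and 8 to 13 fell in wild type, and 0 to 1 rose and 5 to 8 fell in Alb-Cre. The difference gave 3 to 4 higher and 2 to 3 lower, the genotypes under IL-13 3 to 4 and 4 to 7, and under EGFP 0. The replicate block gave 7 and 10 in wild type, and 3 and 3 for the difference. Signal near background limits Slc25a18, Slc25a24, Slc25a29, Slc25a35, Slc25a36 and Slc25a48, and Slc25a30 on its dimmest arrays. The number of arrays limits every carrier.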

Other observations

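Among genes of pyruvate use, G6pc, the last enzyme of glucose release, fell by 2.32 on the log2 scale with IL-13 in Alb-Cre (adjusted p = 0.0152 by limma) and changed by -0.85 in wild type (adjusted p = 0.304), and the difference of -1.47 did not pass (adjusted p = 0.314). Pck1, an early enzyme of glucose synthesis, changed by -0.31 and -0.49 in wild type and Alb-Cre and passed in neither. Tfrc, the transferrin receptor, rose in both genotypes, by 1.20 and 1.19 (adjusted p = 0.00248 and 0.00652 by limma), where the iron carrier Slc25a28 changed by 0.08 and -0.25 without passing.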
